A study of Mus musculus with 2 samples.

Results

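Aminoacyl-tRNA synthetases are the enzymes that load each amino acid onto its transfer RNA (tRNA), and their transcripts were compared in mouse splenic antigen-presenting cells (APCs) that had or had not met T cells with their peptide. The members were chosen by gene symbol: 36 synthetase genes were listed, and 35 of them had a probe set with a single symbol on the array, out of 18193 genes so named. These were 19 cytosolic and 16 mitochondrial synthetases, and the aspartyl enzyme gene Dars was not analysed here. All 35 lay above the low-signal floor on both arrays, a signal of 10.3 that 12897 of the 18193 genes passed on at least 1 array (measured genes).

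APCs came from the spleens of wild-type female C57BL/6 mice aged 10 weeks. They were cultured overnight with P25 or with medium alone, in both cases together with CD4+ T cells carrying the P25 T cell receptor. P25 is the mycobacterial peptide for which this receptor is specific when MHC class II presents it, so the T cells found their antigen in the P25 culture. The APCs were then enriched, and RNA mixed from 3 independent experiments was hybridised to 1 Affymetrix array per condition. How the APCs were enriched is not given in the sources used here.

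A cell making protein needs every amino acid charged onto tRNA, so a full set of synthetases serves the cytosol and another, mostly from separate nuclear genes, serves the ribosomes of mitochondria. Many cytosolic synthetases sit together in a multisynthetase complex held by the scaffold proteins AIMP1, AIMP2 and EEF1E1, and the rest are free enzymes. Several cytosolic synthetase genes are known targets of ATF4, the transcription factor of the amino acid response, and of MYC. The tryptophanyl enzyme gene Wars is known to be induced by interferon-γ. By structure the enzymes fall into class I and class II, which have unrelated catalytic folds.

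Each value is a MAS5 signal, a brightness in arbitrary units that summarises the probes of a probe set, and each ratio is the P25 signal over the medium signal. Each condition had a single array, so differences could not be set against a spread between replicates, and all of them describe these 2 arrays without a p-value. A gene was represented by its brightest probe set. The log2 ratios of the brightest pair of probe sets of a gene differed with an SD of 0.58 over 5293 genes, and 0.46 over the 2616 whose second probe set had a signal of 100 or more. In RNA from a mixture of cells, more cells of a type and more RNA per cell cannot be told apart.

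Cell type markers moved as well. B cell markers were bright on both arrays, with summed signals of 28532 (P25) and 37389 (medium) over 9 measured genes, of which 8 had a log2 ratio below 0 and 1 was at least 2-fold lower. Of all measured genes 7.22% were at least 2-fold lower and 9.43% higher. Among 9 measured markers of macrophages and monocytes, 7 lay 2-fold or more lower (summed signals of 1388 with P25 and 3273 with medium), and of 9 neutrophil markers 8 were (6920 with P25 and 12857 with medium). Conventional dendritic cell markers, 2 of 8 at least 2-fold lower and 1 higher, summed to 267 (P25) and 401 (medium), and plasmacytoid ones, 2 of 5 lower and 1 higher, to 3443 (P25) and 4259 (medium). Most of the plasmacytoid sums came from Tcf4 (1134 with P25, 1265 with medium) and Spib (1757 with P25, 2716 with medium). Siglech had 24.1 with P25 and 50.8 with medium, and the 1 higher gene was Bst2 (4.26-fold). T cell markers were dim, with summed signals of 134 (P25) and 131 (medium) over 6 measured genes, none of them 2-fold different, and the defining genes Cd3e, Cd3d and Cd4 were below the floor on both arrays. Cd3g, another T cell receptor complex gene, was above it on both, at 21.6 with P25 and 11.1 with medium (1.95-fold). Natural killer cell markers summed to 55.4 (P25) and 47.4 (medium) over 3 genes, and none of 3 erythroid markers was measured. The part of cell makeup in the differences below was not tested.

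The cytosolic synthetases were higher with P25 as a set. All 19 had a log2 ratio above 0, as had 51.4% of all measured genes, and 10 of 19 were at least 2-fold higher, against 9.43% of all measured genes. Vars, Qars, Cars and Sars, at log2 ratios from 0.27 to 0.55, were within the SD between probe sets of a gene (0.58). None of the 19 cytosolic genes was at least 2-fold lower, against 7.22% of all genes. Their median log2 ratio was 1.01, or 2.01-fold, where the median of all 12897 measured genes was 0.02. Of the mitochondrial synthetases 3 of 16 passed 2-fold upwards and none downwards, log2 ratios were positive in 14, and their median came to 0.52, or 1.44-fold. Above the upper quartile of all genes, a log2 ratio of 0.48, lay 16 of 19 cytosolic and 8 of 16 mitochondrial genes.

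**Figure D1:**
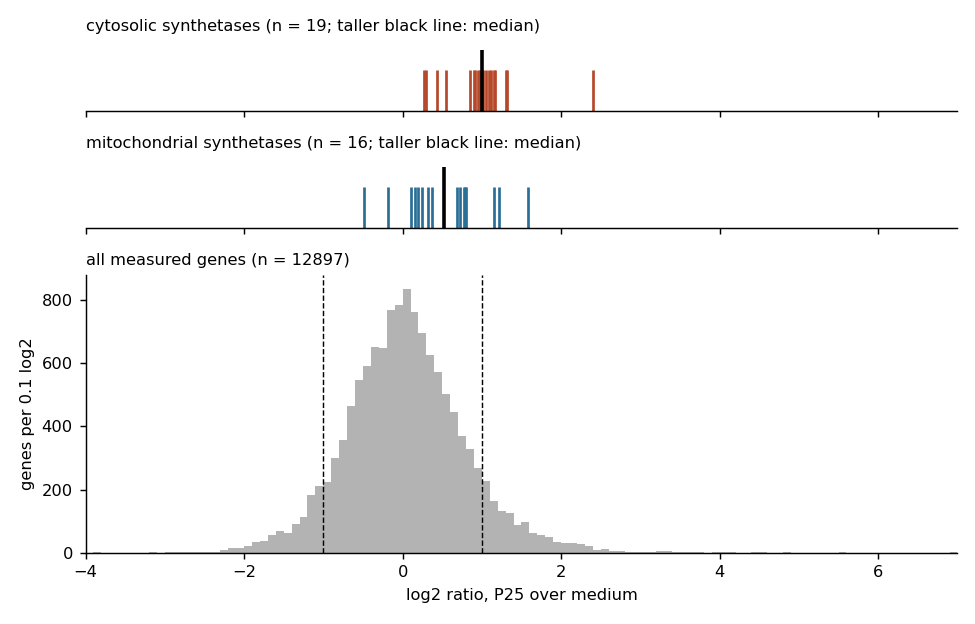
Log2 ratios of P25 over medium (horizontal axis) for the 19 cytosolic synthetases (top, 1 line per gene), the 16 mitochondrial synthetases (middle) and all 12897 measured genes (bottom, genes per bin of 0.1). Dashed lines mark 2-fold differences and taller black lines the medians of 1.01 and 0.52, and the cytosolic genes cluster near the upper 2-fold line.

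The plot of log2 ratios over all genes shows that the cytosolic set was bunched around the 2-fold threshold. Of its 19 genes 12 had a log2 ratio within 0.2 of it, 5 just below and 7 just above. The nearest genes below it were Farsa (1.96-fold) and Farsb (1.94-fold), and the nearest above it were Yars (2.01-fold) and Tars (2.03-fold). The count past 2-fold thus turned on small differences. At 1.5-fold, a threshold added after the values were seen, 15 of 19 cytosolic and 8 of 16 mitochondrial genes were higher, against 20.9% of all measured genes. Among all genes with a mean signal of 100 or more, which every cytosolic synthetase had, 10.9% were at least 2-fold higher. Scaling moved the calls over all genes: 1216 were higher and 931 lower on the deposited scale, 1597 and 653 after median scaling, and 1611 and 638 after spike-in scaling. These scalings brought the median log2 ratio of all genes to 0.15 and 0.16.

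Promoter sequence is shown for the cytosolic genes whose start site region held the core of the C/EBP-ATF composite element, a motif to which ATF4 is known to bind. Whether ATF4 acted on these genes was not tested. RefSeq windows of build GRCm38.p6, running from 250 bases before to 50 bases after the start site, matched 26 of the 35 genes, 12 cytosolic and 14 mitochondrial. Cars, Hars, Lars, Nars, Rars, Vars, Wars, Hars2 and Pars2 were not matched. The core TGATGNAA, searched on both strands, was in the windows of 5 cytosolic genes, Aars, Gars, Iars, Tars and Yars, and of no mitochondrial gene. Of all 32851 windows 3.97% held it. A gene was counted when any of its windows held a motif, while this share and those below are per window. The counts and the shares are thus unlike measures. In the lines below, capitals mark that core, read as TTNCATCA where it lies on the other strand. Positions count from the start site, with no position 0.
Aars, chr8:111033712-111033771, plus strand, positions -130 to -71: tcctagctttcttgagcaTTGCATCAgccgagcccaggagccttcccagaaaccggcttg
Aars, chr8:111033802-111033861, plus strand, positions -40 to 20: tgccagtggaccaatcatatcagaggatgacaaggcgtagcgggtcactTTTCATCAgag
Gars, chr6:55037941-55038000, plus strand, positions -60 to -1: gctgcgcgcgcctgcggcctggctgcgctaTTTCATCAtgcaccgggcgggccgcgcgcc
Iars, chr13:49682050-49682149, plus strand, positions -80 to 20: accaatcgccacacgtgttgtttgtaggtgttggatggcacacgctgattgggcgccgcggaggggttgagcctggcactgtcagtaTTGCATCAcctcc
Tars, chr15:11399633-11399698, minus strand, positions -40 to 26: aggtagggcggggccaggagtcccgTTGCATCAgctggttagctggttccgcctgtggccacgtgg
Yars, chr4:129189863-129189922, plus strand, positions -40 to 20: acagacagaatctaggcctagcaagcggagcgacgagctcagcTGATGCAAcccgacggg

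The match at TTGCATCA was shared letter for letter by Aars, Iars and Tars, and Yars carried its reverse complement TGATGCAA. It lay at positions -112 to -105 in Aars, 8 to 15 in Iars, -15 to -8 in Tars and 4 to 11 in Yars. Aars had another match, TTTCATCA, at positions 10 to 17, and Gars had that form at -30 to -23. These 5 genes had log2 ratios from 0.92 (Aars) to 1.32 (Iars). The other 7 cytosolic genes with a window, in which these letters were not found, ran from 0.29 (Qars) to 1.31 (Kars).

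The E-box CACGTG, the motif bound by MYC among other factors, was found for 4 of the 12 cytosolic genes, Aars, Farsb, Iars and Tars. It was found for 1 of 14 mitochondrial genes, Ears2, and in 7.15% of all windows. The Iars and Tars sequences above hold it at positions -69 to -64 and 20 to 25. No match to the C/EBP-ATF core or the E-box overlapped another. GAS and the ISRE core, motifs known from interferon-induced genes, were also searched. GAS was found for 2 of 12 cytosolic genes (Aars and Kars), for 1 of 14 mitochondrial genes (Nars2) and in 8.30% of all windows. The first Aars sequence above holds it at positions -88 to -80. The ISRE core was found for 1 of 12 cytosolic genes (Qars), for no mitochondrial gene and in 3.44% of all windows. Wars had no window to search. A match describes letters in a window and is not a site of binding.

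Members of the multisynthetase complex were among the higher cytosolic genes. Of 7 analysed here 6 were past 2-fold, beside 9.43% of all genes, and the median log2 ratio was 1.12 (2.17-fold). After loess, which takes out a trend of ratio with signal, 3 of 7 were, beside 9.93% of all genes. Eprs, Lars and Mars1 then dropped under the threshold. Iars, for isoleucine, had signals of 1256 with P25 and 503 with medium, or 2.50-fold, and its other probe set gave a log2 ratio of 1.31 against 1.32 on the brightest. Kars, for lysine, whose gene serves the mitochondria too, had signals of 1496 with P25 and 603 with medium (2.48-fold). Both were measured well above the floor on either array.

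Rars, for arginine, had signals of 1359 with P25 and 605 with medium (2.25-fold). Eprs, a fusion of the glutamyl and prolyl enzymes, had 1081 with P25 and 497 with medium (2.17-fold). In human monocytic cells the protein is also known to leave the complex after interferon-γ and silence translation of selected transcripts. Of its 4 probe sets 3 were past 2-fold, at log2 ratios from 1.12 to 1.52, while the dimmest gave 0.22 from signals of 53.1 (P25) and 45.7 (medium).

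Lars, for leucine, had signals of 897 with P25 and 421 with medium (2.13-fold). Mars1, which charges the methionine tRNAs that start and extend proteins, had 946 with P25 and 454 with medium (2.08-fold). Qars, for glutamine, was the exception in the complex, at 996 with P25 and 813 with medium (1.22-fold). Its second probe set gave a log2 ratio of 0.21 and the dimmer pair -0.29 and -0.52, so its median over probe sets was -0.04.

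**Figure D2:**
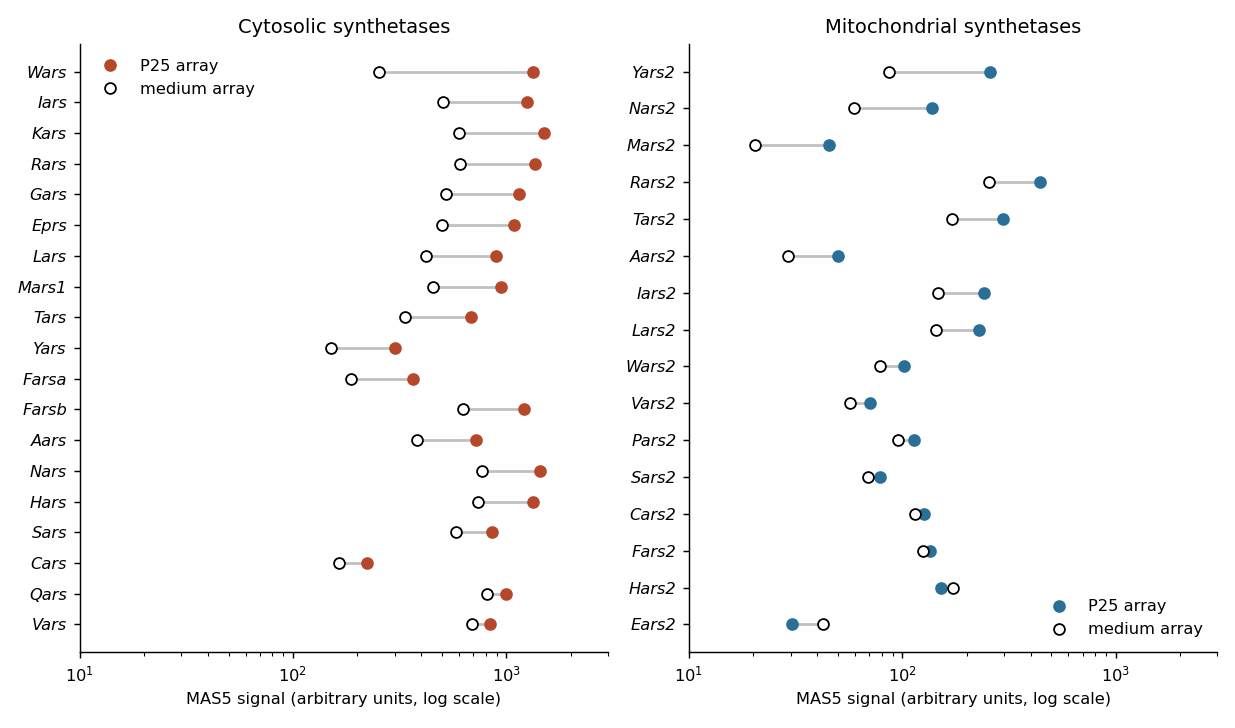
MAS5 signal (horizontal axis, log scale) of the brightest probe set of each of 19 cytosolic (left) and 16 mitochondrial (right) synthetases, ordered by ratio. Filled points are the P25 array and open points the medium array; the line between them shows the difference, widest for Wars with 1339 (P25) and 254 (medium).

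The scaffolds of the complex were higher too, 2 of 3 past 2-fold, beside 9.43% of all genes, as the plot of the related gene lists shows. Eef1e1 had signals of 1302 with P25 and 375 with medium, or 3.47-fold, and Aimp2 had 832 with P25 and 277 with medium, or 3.01-fold, and 1.67 as the log2 ratio of its second probe set. Aimp1 was within 2-fold, at 837 with P25 and 526 with medium (1.59-fold). The ratios of Eef1e1 and Aimp2 were above that of every analysed enzyme of the complex.

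Among the 12 free cytosolic synthetases 4 were past 2-fold, beside 9.43% of all genes, and the median log2 ratio was 0.94 (1.91-fold). The count was 8 after median scaling (12.4% of all genes), 9 after spike-in scaling (12.5%) and 2 with log2(signal + 16) (7.06%). Wars stood first. It had signals of 1339 with P25 and 254 with medium, or 5.27-fold, higher than 99.5% of measured genes. All 4 of its probe sets were past 2-fold, at log2 ratios from 2.25 to 2.96, so the brightest gave one of the lower values. Of 15 other measured interferon-γ-induced genes 10 were at least 2-fold higher, beside 9.43% of all genes, with a median log2 ratio of 1.60. The largest ratios in that list were those of the chemokine gene Cxcl10 (29.2-fold), the GTPase gene Gbp2 (21.8-fold) and Socs1 (16.4-fold), an inhibitor of cytokine signalling. Of the 15 genes 14 had a log2 ratio above 0 and 1, Ciita, was below it at -0.70, with -0.78 to -0.25 on its other probe sets. Without Wars the cytosolic median was 0.99 and 9 of 18 genes were past 2-fold.

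The other free synthetases at or above 2-fold were Gars, Tars and Yars. Gars, for glycine, which like Kars serves cytosol and mitochondria from a single gene, had signals of 1153 with P25 and 519 with medium (2.22-fold). Tars, for threonine, had 681 with P25 and 336 with medium (2.03-fold). Yars, for tyrosine, had 301 with P25 and 150.02 with medium (2.01-fold). Each of these genes had a single probe set, so there was no second value to set beside it.

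Just under the threshold were Farsa and Farsb, the catalytic and the partner subunit of the phenylalanyl enzyme. Farsa had signals of 367 with P25 and 187 with medium (1.96-fold), and Farsb had 1213 with P25 and 626 with medium (1.94-fold). The subunits thus differed little in ratio, but their probe sets did not all go one way. The 3 other probe sets of Farsa, with signals from 32.8 to 72.6, gave log2 ratios from -0.31 to 0.27. Those of Farsb gave 1.08, 0.81 and -2.32, the last from signals of 127 with P25 and 632 with medium.

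Aars, for alanine, had signals of 724 with P25 and 383 with medium (1.89-fold). Nars, for asparagine, had 1435 with P25 and 772 with medium (1.86-fold), and Hars, for histidine, 1329 with P25 and 737 with medium (1.80-fold). The second probe sets of these 3 genes were past 2-fold, at log2 ratios of 1.08, 1.36 and 1.05. Their calls therefore depended on the probe set.

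The lowest free synthetases were Sars, Cars and Vars. Sars, for serine, which also charges the selenocysteine tRNA, had signals of 855 with P25 and 582 with medium (1.47-fold). Cars, for cysteine, had 223 with P25 and 165 with medium (1.35-fold), and Vars, for valine, had 835 with P25 and 694 with medium (1.20-fold). Where a second probe set existed, it gave nearly the same value, a log2 ratio of 0.45 for Sars and 0.38 for Cars. Vars had a single probe set.

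Class I and class II cytosolic enzymes had similar medians, log2 ratios of 1.06 over 9 genes and 0.95 over 9 genes, with Eprs, which holds both, in neither. The lowest ratios, of Vars, Qars and Cars, and the highest, of Wars and Iars, were all in class I. Class II genes were closer together, from 0.55 (Sars) to 1.31 (Kars). In 11 cytosolic genes at least 2 probe sets cleared the floor on both arrays, and the brightest pair differed by a median of 0.16 in log2 ratio. The second probe set was past 2-fold in 7 of these 11, beside 9.31% of all genes on second probe sets.

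**Figure D3:**
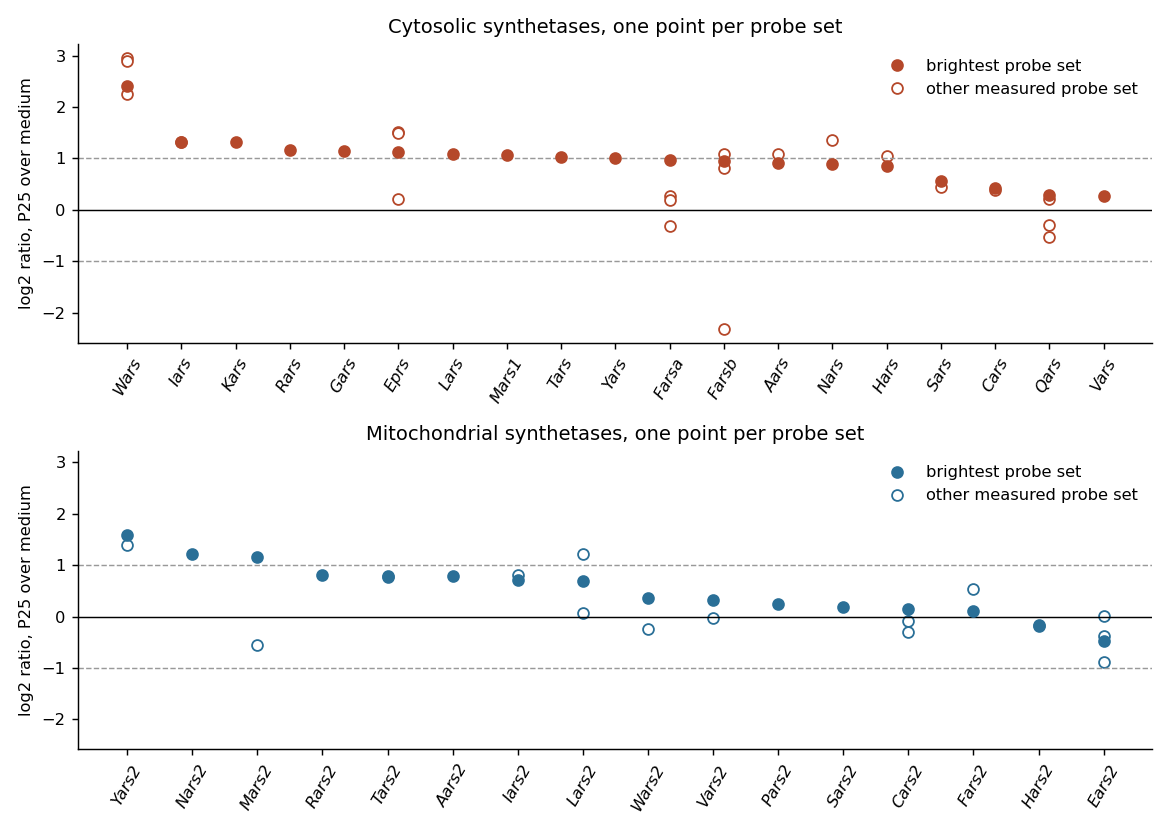
Log2 ratio of P25 over medium (vertical axis) of every measured probe set of each synthetase, cytosolic above and mitochondrial below, with the brightest filled. Dashed lines mark 2-fold; all 4 probe sets of Wars lie above 2, and 1 probe set of Farsb lies at -2.32.

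The mitochondrial synthetases were dimmer and more divided. Yars2, for tyrosine, led them with signals of 257 with P25 and 86.4 with medium, or 2.98-fold, and its second probe set gave 1.40 in log2 ratio. Nars2, for asparagine, had 138 with P25 and 59.4 with medium (2.32-fold), and its other probe set was below the floor on both arrays. Mars2, for methionine, had 45.3 with P25 and 20.4 with medium (2.22-fold), but its other probe set gave -0.54. The call for Mars2 ended with the floor at a signal of 38.6 (log2 ratio 0.23) and with the median over its probe sets (0.30).

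Another 5 mitochondrial genes were between 1.5-fold, the threshold added after the values were seen, and 2-fold higher, and 8 stayed below 1.5-fold. Rars2, for arginine, had signals of 443 with P25 and 254 with medium (1.74-fold). Tars2, for threonine, had 296 with P25 and 171 with medium (1.73-fold), and both of its probe sets gave a log2 ratio near this value, 0.79 and 0.77. Aars2, for alanine, was dim, at 50.2 with P25 and 29.2 with medium (1.72-fold). Iars2 and Lars2, for isoleucine and leucine, were 1.65-fold and 1.60-fold higher, with signals of 241 and 229.96 with P25 and 147 and 143 with medium. The other probe set of Iars2 gave a log2 ratio of 0.81, and those of Lars2, both below the floor with medium, gave 0.07 and 1.21.

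Of the remaining mitochondrial genes, Wars2, Vars2, Pars2, Sars2, Cars2 and Fars2 had log2 ratios from 0.11 (Fars2) to 0.36 (Wars2), within the spread between probe sets of a gene. Hars2, for histidine, had signals of 153 with P25 and 173 with medium, and its pair of probe sets gave log2 ratios of -0.18 and -0.16. Ears2, which loads glutamate onto the mitochondrial glutamate and glutamine tRNAs, was lowest at 30.6 with P25 and 42.7 with medium (1.40-fold lower). Its 4 probe sets ran from -0.87 to 0.01. In the 10 mitochondrial genes with such a pair, the second probe set had a log2 ratio above 0 in 5 and a median of -0.01, where the brightest probe sets of the same 10 genes had a median of 0.34.

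Synthetases for the same amino acid could be set side by side for 14 amino acids with a gene of their own in each compartment. The cytosolic gene had the higher log2 ratio in 10 of them and the mitochondrial gene in 4, with a median difference of 0.32. Tryptophan was farthest apart, at 2.40 for Wars and 0.36 for Wars2, where Wars2 had signals of 102 with P25 and 78.9 with medium. Histidine (0.85 for Hars and -0.18 for Hars2) and phenylalanine (0.97 for Farsa and 0.11 for Fars2) followed among these 14. Eprs, which serves glutamate and proline and so was not counted, had 1.12, where Ears2 had -0.48 and Pars2 0.24, differences of 1.60 and 0.88. Tyrosine (1.01 for Yars and 1.58 for Yars2) and asparagine (0.90 for Nars and 1.21 for Nars2) ran the other way, and methionine and valine were nearly level, with differences (cytosolic minus mitochondrial) of -0.09 and -0.05.

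**Figure D4:**
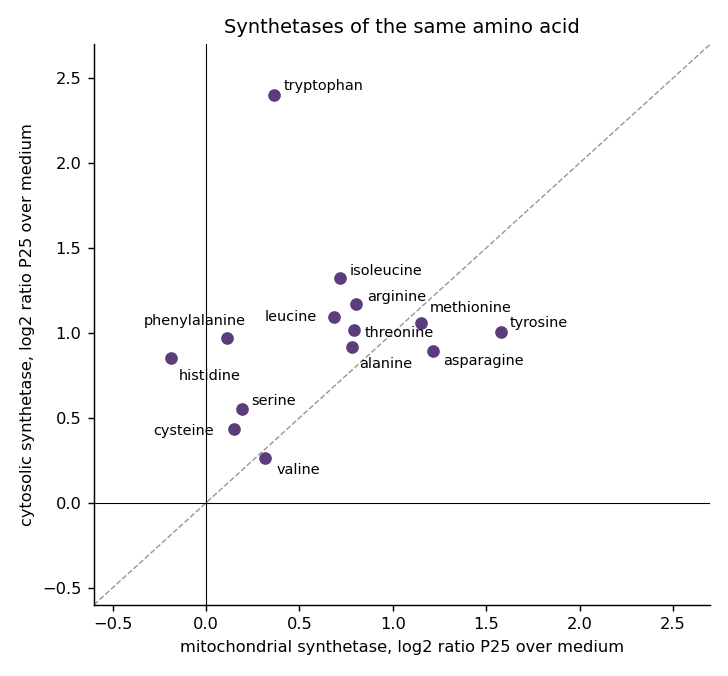
Log2 ratio of P25 over medium of the cytosolic synthetase (vertical axis) and the mitochondrial synthetase (horizontal axis) of the same amino acid, 1 point for each of 14 amino acids. The dashed line marks equal ratios; 10 points lie above it, tryptophan farthest, and tyrosine lies farthest below.

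The difference between both medians, cytosolic minus mitochondrial, was 0.48 on the log2 scale. A common scaling of the arrays cancels in this difference. It was 0.28 after loess and 0.66 with the higher floor. The cytosolic probe sets were the brighter ones, with median signals of 996 with P25 and 503 with medium, where the mitochondrial ones had 131 with P25 and 91.1 with medium. The part of signal in the difference was not tested beyond these values.

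The partners of the mitochondrial enzymes were within 2-fold. The glutamine tRNA of mitochondria is finished by an amidotransferase, and its subunit genes Gatb, Gatc and Qrsl1 had log2 ratios of 0.62, 0.28 and -0.23. Mtfmt, which formylates the methionine tRNA that starts mitochondrial proteins, had -0.06. None of these 4 genes was past 2-fold in either direction, beside 9.43% of all genes higher and 7.22% lower. The median of the 4 was 0.11. They were named after their values were seen.

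**Figure D5:**
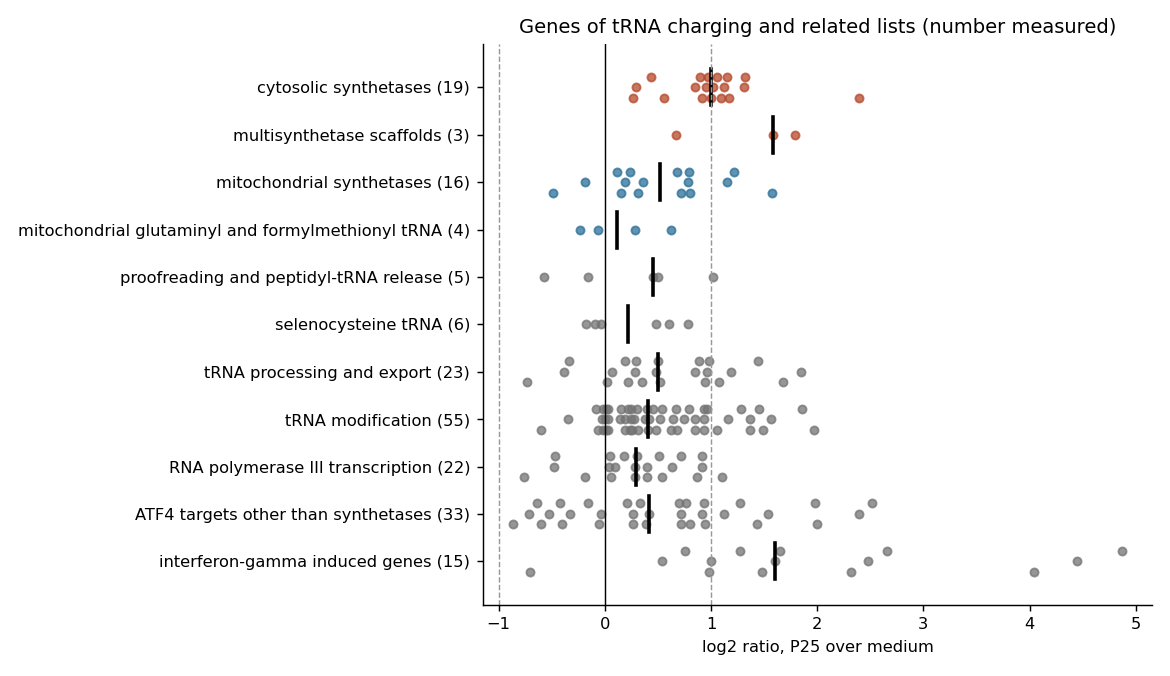
Log2 ratio of P25 over medium (horizontal axis) of every measured gene of the synthetase lists and of related lists, with the number measured in brackets and the median as a black bar. Dashed lines mark 2-fold; the medians of the cytosolic synthetases (1.01), the scaffolds (1.59) and the interferon-γ-induced genes (1.60) lie highest.

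Genes that make and modify tRNA were higher in part. Of 55 measured tRNA modification genes 10 passed 2-fold upwards and none downwards, beside 9.43% and 7.22% of all genes, and their median log2 ratio was 0.41. Pus7, a pseudouridine synthase, had signals of 443 with P25 and 113 with medium (3.92-fold). Mettl1 and Wdr4, the subunits of the tRNA methyltransferase that makes 7-methylguanosine, were 3.63-fold and 2.96-fold higher, though the other probe sets of Wdr4 ran from -0.93 to 0.49.

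Of 23 measured genes of tRNA processing and export 5 passed 2-fold upwards and none downwards, beside 9.43% and 7.22% of all genes (median 0.51). Trnt1, which adds the CCA end onto which amino acids are loaded, had signals of 1483 with P25 and 411 with medium (3.61-fold), and its second probe set gave 1.28 in log2 ratio. Ddx1, of the tRNA ligase complex, was 2.72-fold higher with 1.67 on its other probe set, and Pop1, of ribonuclease P, 3.19-fold higher with -0.46 on its other one.

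RNA polymerase III, which transcribes tRNA genes, had 1 of 22 measured genes past 2-fold upwards and none downwards, beside 9.43% and 7.22% of all genes (median 0.30). That gene was the subunit gene Polr3k, at 653 with P25 and 304 with medium (2.15-fold). Among 5 measured genes of proofreading and peptidyl-tRNA release only Ptrhd1 was past 2-fold (2.03-fold), and none of 6 selenocysteine tRNA genes was, beside 9.43% of all genes higher and 7.22% lower. Their medians were 0.45 and 0.22.

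Of 33 measured ATF4 targets that are not synthetases 8 passed 2-fold upwards and none downwards, beside 9.43% and 7.22% of all genes, and their median log2 ratio was 0.42. Slc7a5, a transporter of large neutral amino acids, was highest, with signals of 356 with P25 and 62.4 with medium (5.71-fold). Psat1, of serine synthesis, had 943 with P25 and 179 with medium (5.26-fold), and Shmt2, the mitochondrial serine hydroxymethyltransferase, 1688 with P25 and 423 with medium (3.99-fold).

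Some genes of stress responses in that list, named after their values were seen, lay within 2-fold on both sides of 0. Ddit3, Trib3 and Ddit4 had log2 ratios of -0.63, -0.60 and -0.71, with 0.65 on the other probe set of Trib3, and Chac1, Sesn2 and Atf3 had 0.42, 0.33 and 0.26. Nupr1, below the floor with P25, had -0.86, and Ppp1r15a, Cebpb and Atf5 had -0.53, -0.40 and -0.33. Over the whole list of 33 genes, 22 had a log2 ratio above 0 and 11 below. The transcript of Atf4 itself, also named after its value was seen, had signals of 1540.1 with P25 and 1581 with medium. Its ratio was thus close to 1, and an array of transcripts does not measure the protein.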

How the data were processed

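The deposited values are MAS5 signal intensities on a linear scale, computed by the authors with GCOS, per the submitters' processing notes, from biotin-labelled cRNA made from 1 µg of total RNA, per the labels' protocols. The sources used here do not state a scaling target or detection calls, and 1 array per group limits the precision. Array and treatment coincide, so any batch effect cannot be told apart from P25.

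The treatment label set the groups. Of 45037 probe sets without controls, 34945 had 1 gene symbol in the platform annotation, 932 several and 9160 none; only the first were used, their symbols brought up to date by Entrez number with RefSeq (GRCm38.p6). The probe set brightest by mean log2 signal stood for each gene. Signals below the 40th percentile over both arrays (10.3) were set to it, and log2 ratios were taken as P25 over medium. A gene was called at a ratio of at least 2 or at most 0.5, with no test. The calculation was checked on simulated arrays with known changes. Their noise was set lower than the spread seen between probe sets, so that check does not measure how reliable the calls are. Python 3.11.15, pandas 2.3.3 and statsmodels 0.14.6 were used.

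Alternatives were scaling (median, hybridization spike-ins, loess), the floor, the choice of probe set, and log2(signal + 16) without a floor. The named genes are all measured synthetases and the scaffolds, and in other lists at most the 3 largest past 2-fold in each direction. Any other gene, cell type markers and the amidotransferase genes with Mtfmt among them, was named after its value was seen. The members and lists were chosen with earlier results of these data known.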

Additional observations from a re-analysis of the deposited data

How the results depend on the processing

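All 19 cytosolic genes stayed above 0 with either scaling, with either floor and after loess. By the median over probe sets Qars was below 0 (-0.04), and on second probe sets Farsa was (-0.31). The number of cytosolic genes at least 2-fold higher was 10, beside 9.43% of all genes. That number was 7 after loess (9.93% of all genes), 8 with log2(signal + 16) (7.06%) and 11 by the median over probe sets (8.07%). On second probe sets 7 of 11 were past 2-fold (9.31%). The count was 14 after median scaling (12.4%) and 15 after spike-in scaling (12.5%). These scalings brought the median log2 ratio of all genes to 0.15 and 0.16. None of the cytosolic genes was at least 2-fold lower under any of these settings, against 7.22% of all genes on the deposited scale. Their median log2 ratio (1.01) was 1.15 after median scaling and 1.16 after spike-in scaling. The mitochondrial median (0.52) was 0.67 after spike-in scaling, 0.34 with the floor at the 60th percentile, 0.31 by the median over probe sets and 0.012 over 11 second probe sets. The cytosolic minus mitochondrial difference (0.48) was 0.28 after loess, 0.66 with the 60th percentile floor and 0.70 by the median over probe sets. It was 1.06 on second probe sets, which covered fewer genes, 11 cytosolic and 11 mitochondrial. Where both probe sets cleared the floor on both arrays, the brightest had medians of 0.92 (11 cytosolic genes) and 0.34 (10 mitochondrial genes). The mitochondrial count past 2-fold (3 of 16, beside 9.43% of all genes) was 1 of 11 on second probe sets (9.31%). At the added threshold of 1.5-fold it was 8 (20.9%). Mars2 reversed to a log2 ratio of -0.54 on its second probe set. On second probe sets, 18 of 22 genes moved by less than the spread between probe sets (SD 0.58). The cause of these moves was not tested. No paired analysis was possible because each group had 1 array.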

Other observations

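Among the genes of tRNA supply that were within 2-fold, Maf1, the repressor of RNA polymerase III, was lowest of its list. It had signals of 858 with P25 and 1453 with medium (1.69-fold lower), though its other probe sets gave log2 ratios from -0.87 to 0.34. Polr1d, a subunit gene shared by RNA polymerases I and III, was brightest of that list with P25, at 2511 with P25 and 1335 with medium (1.88-fold higher). Its 3 other probe sets gave log2 ratios from 0.59 to 1.68, so not all of them were within 2-fold. Elac1, a tRNA 3' processing enzyme, was lowest among the processing genes, at 56.8 with P25 and 94.4 with medium (1.66-fold lower). All 3 were named after their values were seen.

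The probe set of Farsb with 127 (P25) and 632 (medium) stood furthest from the others of its gene among all 71 measured probe sets of the synthetases. The brightest Farsb probe set had 1213 (P25) and 626 (medium). Probe sets of both signs were seen in 8 of the 22 synthetases with more than 1 measured probe set: Cars2, Ears2, Farsa, Farsb, Mars2, Qars, Vars2 and Wars2.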
